A study of Rattus norvegicus with 16 samples.

Results

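The 10 immediate early genes Fos, Fosb, Jun, Junb, Atf3, Egr1, Egr2, Nr4a1, Ier2 and Zfp36 were followed in lung and adipose tissue taken from 8 rats. They were chosen by symbol, from the RefSeq transcript that each probe of the array names, and are 10 of the 16678 gene symbols that could be given to a probe. A total of 13 probes measured them, with the brightest probe of a gene in each tissue used and a further probe each for Egr2, Ier2 and Jun. All animals were Brown Norway males, 7 weeks old at the start. For the 5 HDM rats, house dust mite (HDM) was mixed with the adjuvant Al(OH)3 and put under the skin (45 µg a dose, 3 weekly doses), and HDM without adjuvant then went into the nose for a further 3 weeks (120 µg a dose, 3 doses a week). The 3 control rats received the same adjuvant with saline, and saline through the nose, so that exposure to the adjuvant was shared and HDM was not.

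Immediate early genes are transcribed within minutes of a stimulus, such as a growth factor, a cytokine, stretch or injury, without the need for newly made protein. Signals reach them through MAP kinases and the factors SRF and Elk, which act at CArG boxes, and through CREB, which acts at cAMP response elements (CRE). Most of the 10 genes encode transcription factors. Fos, Fosb, Jun, Junb and Atf3 are leucine zipper proteins that pair to form AP-1, Egr1 and Egr2 are zinc finger factors, and Nr4a1 is an orphan nuclear receptor. Ier2 encodes a nuclear regulator, and Zfp36 (tristetraprolin) a protein that binds AU-rich elements and speeds the decay of cytokine mRNAs. Their mRNAs are short-lived and can also be raised by the handling of a tissue before it is frozen.

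All 16 arrays were 1-color arrays, 1 per rat and tissue, hybridized with RNA labeled from 50 ng of total RNA. The signals are given on the log2 scale relative to the 75th percentile of the array, so that 0 is the level of the probe at that percentile. That percentile was a signal of 376 to 488 in lung and 111 to 240 in adipose tissue. The share of probes well above background ran from 62.2% to 68.9% in lung and from 51.0% to 60.3% in adipose tissue. The adipose array of HDM rat 2 held 1224 outlier spots, and the remaining adipose arrays 355 to 444. HDM rats 1 to 4 lay in row 1 of the slide of each tissue, and HDM rat 5 lay in row 2 with the control rats. Markers of lung epithelium averaged between 6.84 and 7.25 on the lung arrays, and markers of adipocytes between 5.24 and 6.65 on the adipose arrays.

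RefSeq promoter windows of the GRCr8 assembly were at hand for 7 of the 10 genes, namely Fosb, Junb, Egr1, Egr2, Nr4a1, Ier2 and Zfp36. In the 250 bases before the start, the CArG box, the full CRE, the CRE core and the AP-1 site were searched on both strands. The letters found are given in capitals. A CArG box was present in the windows of Egr1 (2 boxes), Egr2 (1 box) and Zfp36 (1 box), compared with 1.5% of all 27457 windows of this length. The CRE core TGACG, which also lies within the full CRE TGACGTCA, was present in 5 of the 7 windows, compared with 19% of all windows. The full CRE was present in the window of Ier2 and in 1.7% of all windows. The AP-1 site TGANTCA was present in none of the 7 windows and in 6.36% of all windows. The 4 windows shown belong to the genes whose lung signals did not overlap between HDM rats and control rats. They lie at chr20:21054442-21054691, minus strand for Egr2, chr7:134259888-134260137, plus strand for Nr4a1, chr19:40080876-40081125, plus strand for Junb and chr19:40399123-40399372, plus strand for Ier2. A match of letters is a description and does not show that a factor was bound.
Egr2: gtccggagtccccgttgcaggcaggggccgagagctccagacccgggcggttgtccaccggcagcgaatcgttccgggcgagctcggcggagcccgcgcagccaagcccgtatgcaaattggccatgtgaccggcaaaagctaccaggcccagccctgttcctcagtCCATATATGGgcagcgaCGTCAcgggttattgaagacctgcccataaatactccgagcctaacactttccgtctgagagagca
Nr4a1: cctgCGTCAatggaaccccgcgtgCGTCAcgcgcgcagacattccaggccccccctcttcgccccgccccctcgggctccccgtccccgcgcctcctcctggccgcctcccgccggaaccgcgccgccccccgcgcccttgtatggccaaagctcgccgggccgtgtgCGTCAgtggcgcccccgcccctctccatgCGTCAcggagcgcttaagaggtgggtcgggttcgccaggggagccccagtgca
Junb: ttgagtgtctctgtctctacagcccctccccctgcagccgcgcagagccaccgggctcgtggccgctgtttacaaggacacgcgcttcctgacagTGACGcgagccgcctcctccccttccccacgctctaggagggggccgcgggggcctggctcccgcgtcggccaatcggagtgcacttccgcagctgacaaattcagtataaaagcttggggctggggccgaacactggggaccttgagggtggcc
Ier2: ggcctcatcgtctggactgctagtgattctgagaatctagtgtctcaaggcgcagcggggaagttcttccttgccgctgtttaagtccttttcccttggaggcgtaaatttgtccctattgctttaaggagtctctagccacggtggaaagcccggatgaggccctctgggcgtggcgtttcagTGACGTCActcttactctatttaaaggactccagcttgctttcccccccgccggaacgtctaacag

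In lung, the mean signal of all 10 genes was higher in HDM rats than in control rats, but none of the 10 was called different. A gene was called at an adjusted p below 0.05 with limma and a fold change above 1.5, and 0.855% of all 45598 lung probes were called, in either direction. The differences ran from 0.06 on the log2 scale for Jun to 1.92 for Fos, with a median of 0.77, compared with a median of -0.01 over all gene symbols. The fold change was above 1.5 for 6 of the 10, and the unadjusted p was below 0.05 with a higher mean for 5 of the 10, compared with 5.25% of all probes. All 5 HDM rats lay above all 3 control rats for 4 of the 10 genes, compared with 4.65% of all probes. The adjusted p-values ran from 0.342 to 1.00. The mean of Jun was lower in HDM rats by 0.05 with scaling to Gapdh and Hprt1, while the other 9 genes were higher in HDM rats under each scaling tried. In whole tissue, more cells of a type and more RNA per cell cannot be told apart.

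Fos, the partner that gives AP-1 its stable pairing with Jun proteins, had a lung signal of -0.89, 0.59, 0.22, -0.22 and 2.59 in HDM rats 1 to 5, and of -1.65, -0.56 and -2.18 in control rats 1 to 3. Only HDM rat 1 lay within the range of the control rats. The difference was 1.92 (standard error 0.75, 3.79-fold, adjusted p = 0.422 with limma; exact permutation test, p = 0.0714). Fosb, a close relative of Fos, gave -3.73, -1.86, -2.43, -3.37 and -0.02 in HDM rats 1 to 5, and -2.84, -2.72 and -3.70 in control rats 1 to 3. Here 2 of the 5 HDM rats lay among or below the control rats. The difference of 0.80 (standard error 0.79, adjusted p = 0.887 with limma) was as large as its error.

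Junb, which pairs with Fos proteins and is a weaker activator than Jun, gave -0.40, 0.08, -0.36, 0.33 and 1.10 in HDM rats 1 to 5, and -0.69, -0.41 and -0.71 in control rats 1 to 3. The groups did not overlap, although HDM rat 1 and control rat 2 lay close together. The difference was 0.75 (standard error 0.33, 1.69-fold, adjusted p = 0.508 with limma; exact permutation test, p = 0.0893). Jun, the main partner of Fos, gave 3.74, 3.93, 4.08, 4.09 and 4.94 in HDM rats 1 to 5 and between 4.06 and 4.15 in the control rats. HDM rat 5 alone lay above all control rats, and the difference was 0.06 (standard error 0.25, adjusted p = 1.00 with limma). It was -0.13 (standard error 0.30) at the dimmer probe of Jun. Atf3, a stress-induced member of the family that can repress transcription, gave 0.53, 1.04, 1.94, 0.91 and 2.80 in HDM rats 1 to 5 and between 1.19 and 1.34 in the control rats. HDM rats 3 and 5 lay above and HDM rats 1, 2 and 4 below all control rats, with a difference of 0.20 (standard error 0.48, adjusted p = 0.994 with limma).

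Egr1, which binds GC-rich promoters and takes part in inflammation and remodeling of the airways, gave -0.74, 0.36, -0.17, 0.67 and 2.02 in HDM rats 1 to 5, and -1.63, -0.40 and -1.43 in control rats 1 to 3. All HDM rats except rat 1 lay above all control rats. The difference was 1.58 (standard error 0.60, 2.99-fold, adjusted p = 0.399 with limma; exact permutation test, p = 0.0714). Egr2, whose product also acts in macrophages and T cells, gave -1.74, -1.92, -1.49, -1.69 and -0.33 in HDM rats 1 to 5, and -2.29, -2.39 and -2.62 in control rats 1 to 3. The groups did not overlap, and the difference was 1.00 (standard error 0.35, 2.00-fold, adjusted p = 0.342 with limma; exact permutation test, p = 0.0357). At the dimmer probe of Egr2 the groups overlapped and the difference was 0.24 (standard error 0.20, adjusted p = 0.838 with limma).

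Nr4a1 (Nur77), a receptor induced in T cells and macrophages on activation, gave 2.46, 2.51, 2.31, 2.31 and 3.59 in HDM rats 1 to 5, and 1.98, 2.19 and 1.38 in control rats 1 to 3. The groups did not overlap and HDM rats 1 to 4 lay close together. The difference was 0.78 (standard error 0.33, 1.72-fold, adjusted p = 0.472 with limma; exact permutation test, p = 0.0357). Ier2 gave 4.70, 4.95, 4.93, 5.18 and 5.81 in HDM rats 1 to 5, and 4.49, 4.60 and 4.59 in control rats 1 to 3. Again all HDM rats lay above all control rats, and the difference was 0.56 (standard error 0.24, 1.47-fold, adjusted p = 0.479 with limma; exact permutation test, p = 0.0536). At its dimmer probe HDM rat 1 lay within the range of the control rats, and the difference was 0.83 (standard error 0.35, adjusted p = 0.482 with limma). Zfp36 gave -1.37, -1.08, -0.87, -0.56 and 0.05 in HDM rats 1 to 5 and between -1.05 and -0.84 in the control rats. The difference of 0.19 was within its standard error of 0.30 (adjusted p = 0.955 with limma). With 5 rats against 3, the exact permutation test has 56 groupings and a smallest p of 0.0179, and all such tests were two-sided.

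**Figure D1:**
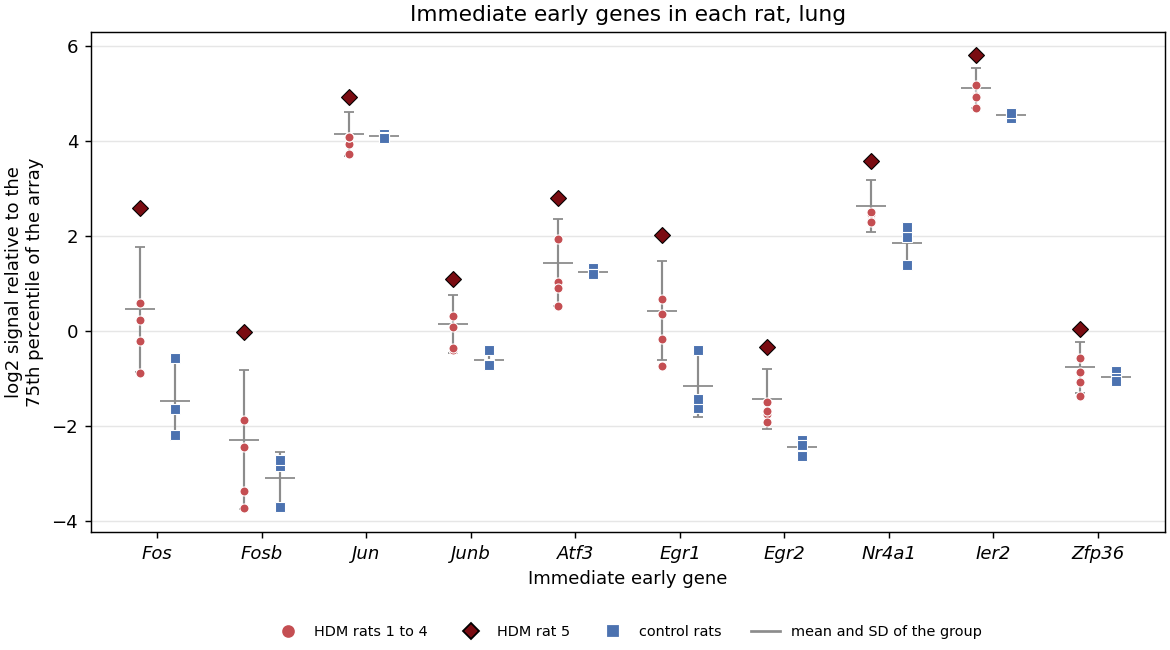
Signal of the 10 immediate early genes in the lung of each rat (y axis, log2 signal relative to the 75th percentile of the array; x axis, gene). Circles are HDM rats 1 to 4, the diamond is HDM rat 5, squares are the control rats, and the gray bar and whiskers are the mean and SD of a group. The diamond is the highest point of all 10 genes, at 2.59 for Fos and 2.02 for Egr1. Levels of different genes are measured by different probes and are not comparable.

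The variation among the HDM rats lay mostly with HDM rat 5, which had the highest lung signal of the 8 rats for all 10 genes. At 8.37% of all lung probes this rat was the highest, while the largest such share was 33.1%, for HDM rat 3. The signals of HDM rat 5 exceeded the mean of HDM rats 1 to 4 by 0.87 for Ier2 to 2.83 for Fosb. Against the control rats, which lay in the same row of the slide, HDM rat 5 was higher by 0.84 for Jun to 4.05 for Fos. These differences within the row equal the values with the row as a block, under which again none of the 10 was called and the adjusted p-values ran from 0.0539 for Egr2 to 0.542 for Atf3. Without HDM rat 5, 7 of the 10 genes were higher and 3 (Jun, Atf3 and Zfp36) were lower in HDM rats, and the median difference was 0.45. Fos then differed by 1.39, Egr1 by 1.18 and Egr2 by 0.72, and the smallest adjusted p was 0.128, for Egr2. For that comparison all HDM rats lie in row 1 and all control rats in row 2, so that the row and the group cannot be told apart.

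Markers of other cells and tissues also varied between the lungs. The summed signal of 9 adipocyte markers, each relative to the 75th percentile of the array on the linear scale, was 46.5 in HDM rat 5, while HDM rats 1 to 4 had 19.5 to 35.4 and control rats 17.4 to 30.5. HDM rat 5 was the highest of the 8 rats for 7 of these 9 markers, among them Adipoq and Lep, and 7 of the 9 were well above background on all lung arrays, with Plin1 on only 2 arrays and Lep on 5. The same sum was 1663 to 2924 in adipose tissue. For 7 skeletal muscle markers the sum was 25.3 in HDM rat 5, while HDM rats 1 to 4 had 4.23 to 12.2 and control rats 9.91 to 23.7. The summed signal of 10 neutrophil markers was 138.7 in HDM rat 5, the lowest of the HDM rats, which reached 287.9, and was 18.0 to 23.5 in the control rats. None of 7 heat shock genes, which rise with stress and heat, was highest in HDM rat 5. All 7 had a lower mean in HDM rats than in control rats, which left little room for this. Among the HDM rats alone, HDM rat 5 was the highest for Bag3, Hspa1a (2.79), Hspd1 and Hsph1. It was the lowest of them for Hspa8 (7.47) and Hsp90aa1, and neither for Hspb1. Their mean log2 signal was 3.83 in HDM rat 5, 3.55 to 3.79 in HDM rats 1 to 4 and 4.37 to 4.53 in the control rats. Their summed signal was 305.8 in HDM rat 5, 326.5 to 339.9 in HDM rats 1 to 4 and 408.9 to 485.4 in the control rats. The part of other tissue in the values of HDM rat 5 was not tested.

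**Figure D2:**
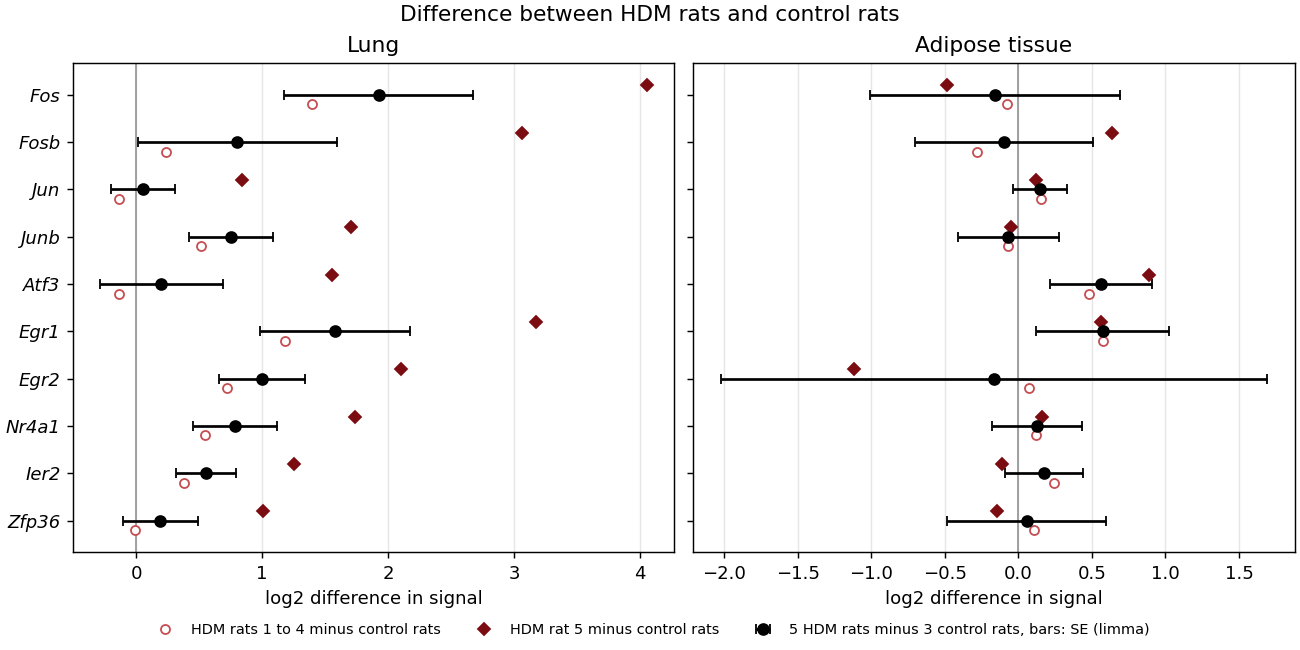
Difference between HDM rats and control rats in lung (left) and adipose tissue (right), as log2 difference in signal (x axis) for each gene (y axis). Black circles are all 5 HDM rats with the standard error from limma, open circles HDM rats 1 to 4 only, and diamonds HDM rat 5 only, each minus the mean of the 3 control rats. In lung the diamonds lie between 0.84 and 4.05, to the right of every other point of their gene, and in adipose tissue between -1.12 and 0.89.

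In lung the spread between rats of the same group was large for these genes. With HDM rat 5 included, it lay mostly among the HDM rats. Within the HDM group the SD ran from 0.43 for Ier2 to 1.47 for Fosb. Within the control group it ran from 0.05 for Jun to 0.82 for Fos. For each of the 10 this was smaller than in the HDM group with HDM rat 5 included. For Nr4a1, HDM rats 1 to 4 alone lay closer together (2.31 to 2.51) than the control rats (1.38 to 2.19). For Jun they lay further apart (3.74 to 4.09, control rats 4.06 to 4.15). The SD of HDM rats 1 to 4 alone was not compared gene by gene. The SD pooled over the groups in lung was 1.24 for Fosb, 1.17 for Fos, 0.93 for Egr1 and 0.75 for Atf3, and only 0.177% of the probes well above background on all arrays had an SD as large as that of Fosb. With HDM rat 5 included, the pooled SD was among the largest 5% of probes for 7 of the 10 genes and among the largest 25% for all 10. The smallest pooled SD was that of Ier2, at 0.35. The median pooled SD of the 10 genes was 0.52, and 0.28 without HDM rat 5.

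When the group means were removed, the 10 genes deviated together from rat to rat. Over the 8 lung samples the correlation between pairs of the 10 genes had a median of 0.84 (range 0.64 to 0.96) in all 45 pairs. It had a median of 0.39 without HDM rat 5, with 37 of the 45 pairs above 0. The signals share the arrays and their scaling. On average over the genes, HDM rat 5 stood 1.26 above its group mean with all 10 genes above it, and HDM rat 1 stood at -0.73 with no gene above it. Among 11902 other gene symbols, the correlation with the mean profile of the 10 genes had a median of -0.02, and 0.227% of them exceeded 0.9. The most alike were Itpka (0.98), Btg2 (0.97), Ppp1r15a (0.97), Ier3 (0.96), Drc1 (0.95), Osbp2 (0.95), Tent5a (0.95), Slc34a3 (0.95), Glud1 (0.94) and Aldh4a1 (0.94). Btg2, Ppp1r15a and Ier3 are themselves early-response genes, and their correlations were 0.83, 0.87 and 0.75 without HDM rat 5. Those of the other symbols named then ran from 0.57 for Slc34a3 to 0.92 for Drc1.

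Other early-response genes did not all follow the same course in lung. Of 20 other early-response transcription factors, such as Nr4a3 and Maff, none was called, 4 were higher and 16 lower in HDM rats, and the median difference was -0.14. Of the 20, 2 were well above background on none of the lung arrays. The unadjusted p was below 0.05 for 5 of them, all lower in HDM rats. The share of all lung probes lower in HDM rats at this threshold was not counted. Nr4a3, a paralog of Nr4a1, differed by -1.78 (standard error 0.40, adjusted p = 0.109 with limma), and Maff, a small Maf protein that pairs with AP-1 members, by -0.94 (standard error 0.16, adjusted p = 0.0504). Fosl1, the Fos relative Fra-1, differed by -0.80 (standard error 0.96, adjusted p = 0.921) and was well above background on only 2 of the 8 arrays. The control rats lay above all HDM rats for Nr4a3 and Maff, opposite to Nr4a1. The share of all lung probes with the control rats above all HDM rats was not counted.

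Among 23 other early-response regulators, which include growth factors, phosphatases and feedback inhibitors, 3 were called. Over all lung probes 0.855% were called, in either direction. Per1, a clock gene that also responds to glucocorticoids, fell by 2.00 (standard error 0.32, adjusted p = 0.0402 with limma), and Ccn2, the connective tissue growth factor, fell by 1.51 (standard error 0.16, adjusted p = 0.00706). Socs3, the feedback inhibitor of cytokine receptors, rose by 1.18 (standard error 0.19, adjusted p = 0.0369). HDM rat 5 was the highest of the 8 rats for 13 of the 23 regulators and for 5 of the 20 transcription factors. With the slide row as a block the value is HDM rat 5 alone against the control rats, and the test has less power. The differences were then -1.89 for Per1, -1.15 for Ccn2 and 1.38 for Socs3, in the same direction and without a call (adjusted p of 0.512, 0.221 and 0.315). Leaving out 1 rat at a time, Ccn2 was called in 6 of 8 fits, not without control rat 1 or control rat 2 (adjusted p up to 0.0542). Per1 was called only without HDM rat 3 or HDM rat 4 (adjusted p from 0.0442 to 0.165), and Socs3 only without HDM rat 1 (0.0239 to 0.152).

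Transcripts with AU-rich elements that Zfp36 binds, mostly those of cytokines and chemokines, were higher in HDM rats for 12 of the 13 on the array, with a median difference of 0.53. Il2 and Il6 were well above background on none of the lung arrays and Ptgs2 on 1, so that the direction of these rests on background signal. Il1b, the cytokine interleukin-1β, was called (1.62, standard error 0.26, adjusted p = 0.0373 with limma), and the difference was 2.26 with the row as a block (adjusted p = 0.104, again HDM rat 5 alone). With 1 rat left out it was called only without HDM rat 1 or HDM rat 5 (adjusted p from 0.0317 to 0.148). The chemokines Ccl2 (1.17, adjusted p = 0.185) and Cxcl2 (1.16, adjusted p = 0.693) were not. HDM rat 5 was the highest of the 8 rats for 11 of these 13 transcripts, and 3 of them (Myc, Ier3 and Ptgs2) are also among the early-response genes above. The kinases and factors upstream of the immediate early genes showed no call among 14, with a median difference of -0.0020 and the largest differences at Elk1 (0.85, adjusted p = 0.217), Rps6ka1 (0.22) and Crem (-0.20). The 8 AP-1 partners outside the 10 genes showed no call either, with differences from -0.34 to 0.17 and the largest at Mafk (-0.34), Jdp2 (-0.23) and Batf3 (-0.21). All 7 heat shock genes were lower in HDM rats with an unadjusted p below 0.05, for which no share over all probes was counted. Of these, Hsph1 (-1.39, adjusted p = 0.00442) and Hspb1 (-0.69, adjusted p = 0.0425) were called. The share of all lung probes called in either direction, to be set beside the calls in each of these lists, was 0.855%. Hspa1a, an inducible Hsp70 gene, differed by -1.57 (adjusted p = 0.0506). With any 1 rat left out Hsph1 was called and Hspb1 was not, although its difference stayed between -0.75 and -0.63 (adjusted p from 0.0533 to 0.189). With the row as a block the differences were -1.19 for Hsph1 and -0.68 for Hspb1, without a call.

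**Figure D3:**
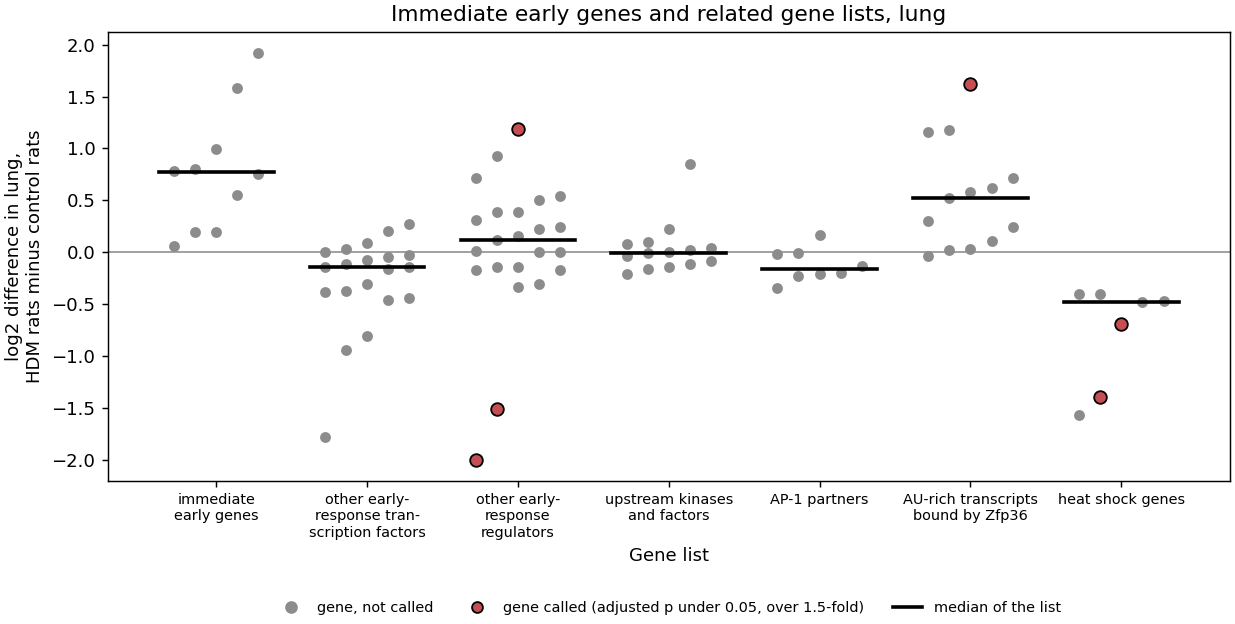
Difference between HDM rats and control rats in lung for each gene of 7 lists (y axis, log2 difference; x axis, gene list). Each circle is a gene, outlined circles are genes called different, and the black bar is the median of the list. The immediate early genes lie between 0.06 and 1.92 with a median of 0.77, the other early-response transcription factors between -1.78 and 0.27, and the heat shock genes below -0.39.

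Lists of cell markers, glucocorticoid-induced genes and clock genes were also compared between the groups in lung. Neutrophil markers were called higher in HDM rats for 8 of 10 genes and eosinophil markers for 1 of 6. Called lower were 4 of 9 glucocorticoid-induced genes and 3 of 11 clock genes, compared with 0.855% of all lung probes called in either direction. Per1 is counted in both of these lists and among the regulators above. All the lists were chosen with earlier results of these data known, so that the share over all probes is no test of them. Among the called genes, S100a8 rose by 4.46 (adjusted p = 0.000736 with limma), and Zbtb16 and Fkbp5, which glucocorticoids induce, fell by 4.70 and 2.78 (adjusted p = 7.28e-05 and 0.000134). Some genes of these lists went the other way without a call. The neutrophil marker Fpr1 was lower in HDM rats by 0.66, and the clock genes Bmal1 and Npas2 were higher by 0.97 and 1.11. The macrophage, lymphocyte, endothelial, lung epithelial, adipocyte, epididymis, skeletal muscle and erythrocyte lists held no call in lung. Without a call, the adipocyte markers were higher in HDM rats for 8 of 9 genes, with a median difference of 0.57, and the lung epithelial markers lower for 8 of 8, with a median of -0.20. The part of these cells in the signals of the immediate early genes was not tested.

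In adipose tissue none of the 10 genes was called, and none had an unadjusted p below 0.05. Of all adipose probes, 0% were called and 1.02% had an unadjusted p below 0.05 with a higher mean in HDM rats. The mean was higher in HDM rats for 6 genes and lower for 4, from -0.16 for Egr2 to 0.57 for Egr1, with a median of 0.09. No gene kept all HDM rats above all control rats, which held at 1.54% of all probes. The median of all adipose probes was shifted by -0.15 on this scale and by 0.14 with median scaling, under which all 10 genes were higher in HDM rats, again without a call. The adjusted p-values ran from 0.655 for Atf3 to 0.980 for Egr2.

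Fos gave -1.63, -1.92, 1.30, 0.87 and -0.76 in the adipose tissue of HDM rats 1 to 5, and -0.05, -1.36 and 0.61 in control rats 1 to 3. HDM rats lay on either side of the control rats, and the difference of -0.16 had a standard error of 0.85 (adjusted p = 0.956 with limma). Egr1 gave -0.95, -1.07, 0.70, 0.12 and -0.32 in HDM rats 1 to 5, and -1.47, -0.78 and -0.38 in control rats 1 to 3. HDM rats 3, 4 and 5 lay above all control rats and the difference was 0.57 (standard error 0.45, adjusted p = 0.745). Fosb gave -3.77, -4.17, -1.83, -1.99 and -2.02 in HDM rats 1 to 5 and between -3.00 and -2.35 in the control rats, and was not well above background in HDM rat 2. The same HDM rats as for Egr1 lay above all control rats, and the difference was -0.09 (standard error 0.61, adjusted p = 0.962).

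Atf3 gave -0.57, 0.19, 0.77, 0.91 and 0.74 in HDM rats 1 to 5 and between -0.29 and -0.08 in the control rats, with a difference of 0.56 (standard error 0.34, adjusted p = 0.655 with limma). All HDM rats except rat 1 lay above all control rats. For Junb (-0.07), Zfp36 (0.06), Nr4a1 (0.13), Jun (0.15) and Ier2 (0.17) the differences were below their standard errors of 0.18 to 0.54. The dimmer probes of Jun (-0.21) and Ier2 (-0.17) differed in the opposite direction, within standard errors of 0.23 and 0.37. HDM rat 3 had the highest signal of the 8 rats for 6 of the 10 genes, HDM rat 4 for 2 and control rat 1 for 2. HDM rat 3 was the highest at 9.98% and control rat 1 at 35.1% of all adipose probes. HDM rat 5, the highest rat in lung, was the highest for none of the 10 in adipose tissue and lay above its group mean for 3 of the 9 that were well above background on all adipose arrays.

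**Figure D4:**
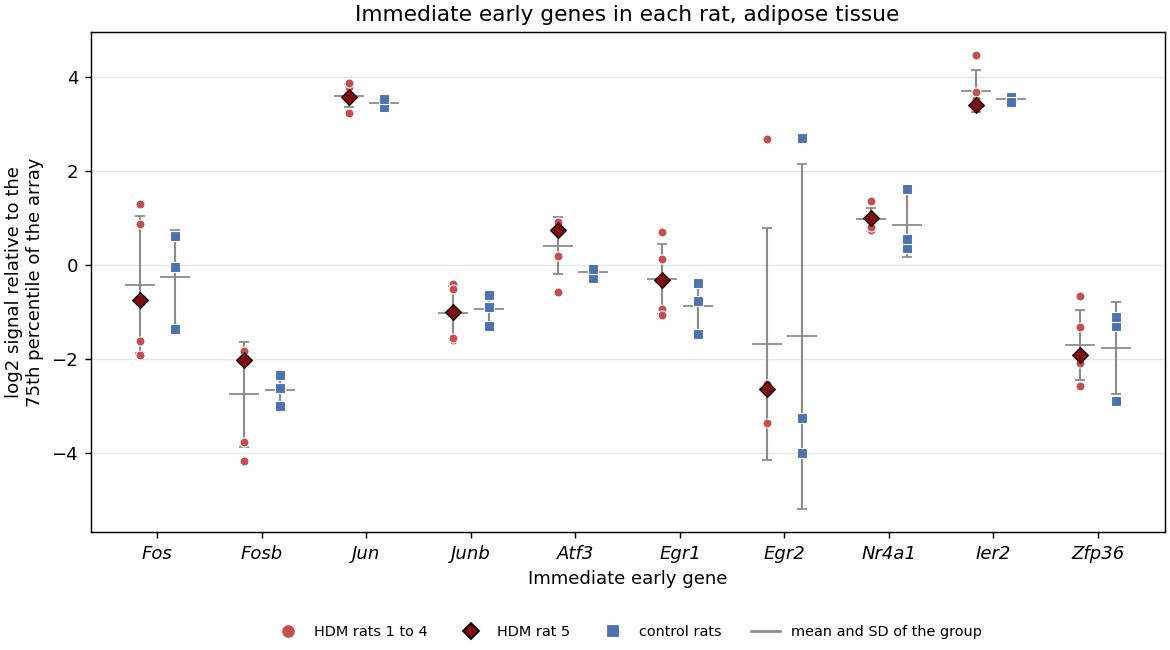
Signal of the 10 immediate early genes in the adipose tissue of each rat (y axis, log2 signal relative to the 75th percentile of the array; x axis, gene), with the symbols of the lung plot. The groups overlap for every gene, Fos runs from -1.92 to 1.30, and the Egr2 signals of 1 HDM rat and 1 control rat lie at 2.67 and 2.70, far above the others.

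Egr2 stood apart in adipose tissue by its spread. It gave 2.67 in HDM rat 1 and 2.70 in control rat 1, and between -4.02 and -2.55 in the other 6 rats. The same pair of rats was highest at the dimmer probe of Egr2, with -0.81 in HDM rat 1 and -0.39 in control rat 1 and between -4.01 and -2.94 in the others. The same pair of adipose samples carried transcripts of the epididymis, an organ that lies against the gonadal fat of male rats. The summed relative signal of the 7 epididymis markers was 3531 in HDM rat 1 and 4263 in control rat 1, while it was 0.223 to 3.86 in HDM rats 2 to 5 and 0.501 and 28.7 in control rats 2 and 3. In lung the sum was between 0.285 and 0.365 in all 8 rats. Without HDM rat 1 and control rat 1, the adipose difference of Egr2 was 0.86 in place of -0.16, and it was not called (adjusted p = 0.718 with limma). The part of epididymal RNA in the Egr2 signal was not tested. Control rat 1 was also the highest of the 8 rats for Nr4a1 (1.62) and the lowest for Zfp36 (-2.89), and HDM rat 1 the second lowest for Zfp36 (-2.59).

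**Figure D5:**
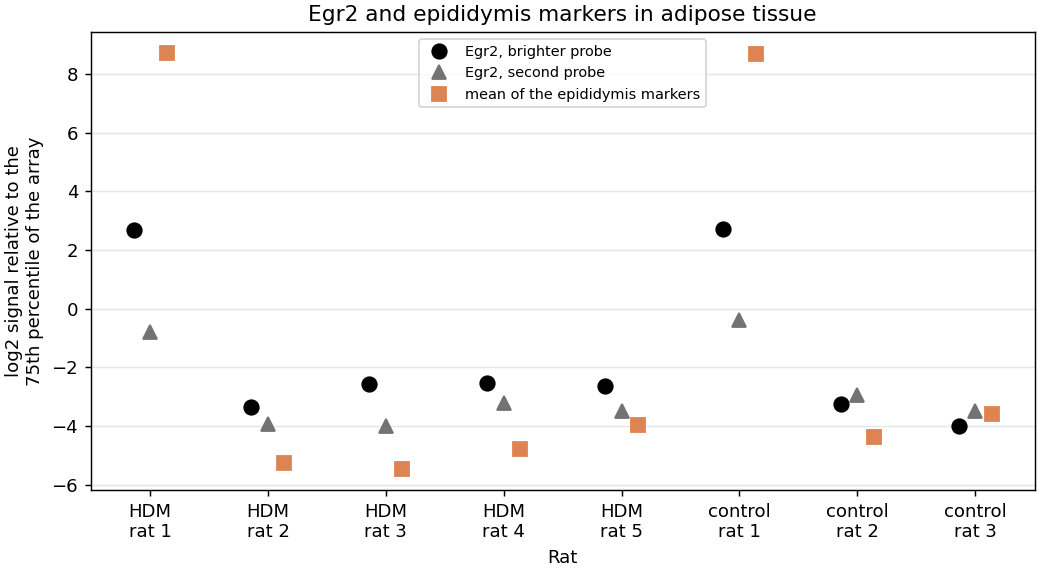
Signal of the brighter Egr2 probe (circles), the dimmer Egr2 probe (triangles) and the mean of the 7 epididymis markers (squares) in the adipose tissue of each rat (x axis), as log2 signal relative to the 75th percentile of the array (y axis). HDM rat 1 and control rat 1 stand above the other 6 rats in all 3 series, at 2.67 and 2.70 for the brighter Egr2 probe and 8.71 and 8.69 for the markers.

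In adipose tissue, too, many of the genes deviated together from rat to rat. Over the 9 genes well above background on all adipose arrays, 26 of 36 pairs had a correlation above 0 and the median was 0.59. The pairs below 0 all held Egr2 or Nr4a1, down to -0.79 for Egr2 with Zfp36. The SD was among the largest 5% of probes for 3 genes (Fos, Fosb and Egr2) and among the largest 25% for 8. The mean profile of the 9 genes is swayed by Egr2. It stood 4.37 above its group mean in HDM rat 1 and 4.23 in control rat 1, the pair with epididymis markers. The symbols most like this profile were Bud13 (0.97), Ccn1 (0.96), Hexim2 (0.94), Rfc2 (0.94), Cep112 (0.94), Ei24 (0.93), Akt1 (0.92), Sesn2 (0.92), Trmt11 (0.91) and Plekhf2 (0.91), over 8 rats and among 9921 symbols. Of these, Ccn1, a matricellular protein gene, is one of the early-response regulators. None of the lists of early-response genes, upstream kinases, AP-1 partners, AU-rich transcripts, heat shock genes, glucocorticoid-induced genes, clock genes and cell markers held a called gene in adipose tissue. The 3 largest differences of each early-response list were, among the regulators, those of Dusp2 (-1.44, adjusted p = 0.312, well above background on 3 of 8 arrays), Per1 (-1.27, adjusted p = 0.213) and Arc (-0.83, adjusted p = 0.635), and among the transcription factors those of Egr3 (-0.70, adjusted p = 0.448), Nr4a3 (-0.63, adjusted p = 0.715) and Ier5 (0.42, adjusted p = 0.431). Among the AU-rich transcripts they were Csf2 (-1.28, well above background on 0 of 8 arrays), Cxcl2 (-1.19) and Ccl2 (1.13), among the kinases and factors upstream Elk3 (0.65), Map2k1 (0.34) and Mapk14 (0.33), among the AP-1 partners Batf (0.61) and Nfe2l2 (-0.35), and among the heat shock genes Hspa1a (-0.59), Hsph1 (-0.57) and Hspb1 (0.47).

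Both arrays of a rat were also set against each other. At the same probe, 6 of the 10 genes were called higher in lung than in adipose tissue, and none was called lower. Over all probes 54.3% were called in either direction and 14.9% were called higher in lung, and the median of all probes was -0.47 for lung minus adipose tissue. All lung arrays lay on 1 slide and all adipose arrays on another, so that tissue and slide cannot be told apart. Nr4a1 was higher in lung by 1.34 (standard error 0.22, adjusted p = 0.00111 with limma), Ier2 by 1.23 (standard error 0.20, adjusted p = 0.000983) and Atf3 by 1.22 (standard error 0.21, adjusted p = 0.00141), in 8, 8 and 7 of the 8 rats. Zfp36 was higher by 0.88 (adjusted p = 0.0295), Junb by 0.76 (adjusted p = 0.0225) and Jun by 0.60 (adjusted p = 0.00793). The calls of Nr4a1, Ier2 and Atf3 held with any 1 rat left out. Zfp36 was not called without HDM rat 1, HDM rat 5 or control rat 1 (adjusted p up to 0.109), Junb without control rat 2 (0.089), and Jun without HDM rat 5 or control rat 2, where it fell to 0.50 and 0.58, just under 1.5-fold. For Egr1 (0.23), Fosb (0.03), Fos (-0.15) and Egr2 (-0.32) no call was made, and their values within rats ran in either direction.

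The difference with HDM in lung was compared with that in adipose tissue. For this, lung minus adipose signal was taken within each rat and compared between HDM rats and control rats. None of the 10 genes was called or had an unadjusted p below 0.05, and 0.00219% of all probes were called. For Fos the lung difference exceeded the adipose difference by 2.08 (standard error 1.25, adjusted p = 0.711 with limma), and for Egr2 by 1.16 (standard error 1.90, adjusted p = 0.863). For the other genes the values ran from -0.36 for Atf3 to 1.01 for Egr1.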

How the data were processed

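RNA of lung and adipose tissue from 8 rats was measured on 16 arrays (SurePrint G3 Rat 8x60K). Per the labels and the file headers, the authors deposited for each array the spot intensity on a linear scale, background-subtracted by Agilent Feature Extraction without scaling between arrays, beside raw spot and background intensities and marks for outlier spots, saturation and spots well above background. Log2 values deposited by the authors formed a second table, and 99.97% of its lung cells and 99.85% of its adipose cells lay within 0.1 of the intensities scaled and centered as described next. A further 39 cells held a month and were treated as missing.

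From the deposited intensities, after removal of control probes and outlier spots, the log2 values of replicate spots were averaged and expressed relative to the array's 75th percentile. Gene symbols were looked up by transcript accession among 47357 RefSeq rat genes (GRCr8), and 21229 of 45598 probes could be named. Symbols with several probes are given by the probe brightest in the tissue. Within each tissue, the HDM group was set against the control group with limma 3.58.1 (R 4.3.3), with the Benjamini-Hochberg adjustment over all 45598 probes. Tissues were compared on the difference between both arrays of a rat. Single genes were also compared with exact permutation tests. The scripts were tested on simulated data. Python 3.11.15 and matplotlib 3.10.9 made the figures.

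The 10 genes and the 18 other gene lists were chosen with earlier results of these data known. The rule names all 10 genes, every called gene and the 3 largest differences of each list, and the 10 most similar profiles per tissue. Genes of the marker, glucocorticoid and clock lists are given mostly as counts, and 1 gene that the rule names is not reported here. Alternatives were other scalings (quantile, median, the percentile over detected probes, or 2 housekeeping genes), background correction by normexp (offset 50), the deposited log2 table, dim probes left out (under 3 arrays well above background), array weights, the methods' t-test, the adjustment over probes past 1.5-fold, a joint fit of both tissues, the mean over the probes of a gene, the slide row and the replicate number as blocks, and rats left out. Precision is limited by the number of arrays.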

Additional observations from a re-analysis of the deposited data

Results flagged for a closer look

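For each of the 10 immediate early genes and each tissue, the highest or lowest of the 5 HDM rats was set against the others, as its gap to the nearest rat divided by the range of the group. In 4 of the 20 groups this ratio exceeded the critical value of 0.71 for 5 samples, which a single group exceeds by chance about 1 time in 20. The 20 groups hold the same 5 rats and genes that deviate together. They are not independent, so 4 of 20 cannot be set against that share. In lung, HDM rat 5 stood apart for Nr4a1, with a ratio of 0.844 (3.59, while HDM rats 1 to 4 had 2.31 to 2.51), and for Egr2, with a ratio of 0.729 (-0.33, while they had -1.92 to -1.49). In adipose tissue, HDM rat 1 stood apart for Egr2, with a ratio of 0.864 (2.67, compared with -3.37 to -2.55). This is the HDM rat whose adipose sample carried the epididymis markers. HDM rat 3 stood apart in adipose tissue for Ier2, with a ratio of 0.723 (4.47, compared with 3.38 to 3.68).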

How the results depend on the processing

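The count of called genes stayed at 0 of 10 in lung, in adipose tissue and for the difference between them under every alternative run. Higher signals in lung than in adipose tissue were called for 4 to 6 of the 10. In lung, Fos, Fosb, Junb, Egr1, Egr2, Nr4a1 and Ier2 kept a positive difference under all 23 alternatives. Genes with a difference near 0 and, with rats left out, Fosl1 changed sign, and the cause was not tested. Scaled to the median of each array, the adipose difference was 0.13 for Egr2, 0.14 for Fos, 0.20 for Fosb and 0.23 for Junb. Fosb in adipose tissue was 0.13 with quantile normalization and 0.14 with normexp and quantile normalization. Scaled to Gapdh and Hprt1, Jun in lung was -0.0535. With array weights, Jun in lung was -0.00163, and in adipose tissue Egr2 was 0.58, Fos 0.33, Fosb 0.30, Junb 0.23 and Zfp36 -0.15. With the mean over the probes of a gene, Jun was -0.0356 in lung and -0.0324 in adipose tissue. With the slide row as a block, the adipose difference was 0.64 for Fosb, -0.11 for Ier2 and -0.15 for Zfp36. Without HDM rat 1 and control rat 1 it was 0.86 for Egr2, 0.25 for Fos, 0.24 for Junb and -0.28 for Zfp36.

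When 1 rat at a time was left out, the difference in lung ranged from -0.14 to 0.16 for Jun, -0.14 to 0.43 for Atf3, -0.0112 to 0.34 for Zfp36 and -1.59 to 0.14 for Fosl1. In adipose tissue it ranged from -1.41 to 1.95 for Egr2, -0.70 to 0.28 for Fos, -0.33 to 0.26 for Fosb, -0.25 to 0.0882 for Junb, -0.50 to 0.38 for Zfp36, -0.0197 to 0.25 for Ier2 and -0.11 to 0.52 for Nr4a1. The median correlation between pairs of the 10 genes in lung ranged from 0.39 (without HDM rat 5) to 0.89. In lung, 2 of the 10 genes had an exact permutation p below 0.05. This was 1 of 10 with the arrays scaled to their medians, with Gapdh and Hprt1, with normexp and quantile normalization and with the deposited table, and 0 to 2 with each rat left out. In adipose tissue it was 0, and 0 to 1 with each rat left out. Without HDM rat 1 and control rat 1 this test cannot reach 0.05 and was not run.

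The labels tie no litter, batch or day to a replicate number. Same-numbered samples deviated from their group means with correlations from -0.06 to 0.01 in lung, so that no pairing showed there. In adipose tissue the correlations were 0.72, 0.23 and 0.0991 for numbers 1, 2 and 3, the first of them for the pair with epididymis markers. As not every pair exceeded 0.1, the numbers were not taken as pairs. With the replicate number as a block, 0 of the 10 genes were called in either tissue. The lung difference was -0.18 for Jun, -0.073 for Atf3 and -0.15 for Zfp36, and the adipose difference 0.44 for Egr2 and -0.00484 for Zfp36. The other early-response genes called in lung numbered 3, and 0 with either block, 1 to 5 with other tests and scalings and 0 to 3 with 1 rat left out. The number of arrays and, for dim probes, the signal over background limit these values.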
